A study of Mus musculus with 2 samples.

Results

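The genes described here are the potassium channel genes of 2 mouse calf muscles, measured nucleus by nucleus. They were taken from the deposited count table by name: every symbol that starts with Kcn, plus the 4 genes of the gamma subunits of the BK channel (Lrrc26, Lrrc38, Lrrc52 and Lrrc55), kept where the gene had 20 or more unique molecular identifiers (UMIs, each a captured RNA molecule) over all nuclei. Of the 32285 genes in the table, 103 symbols met the name rule and 57 passed the minimum. Grouped by symbol start alone, the 57 members comprise 25 voltage-gated alpha subunits and 6 partners of voltage-gated channels. They also comprise 11 genes of the calcium- and sodium-activated channel families with auxiliary subunits, 7 inward rectifiers, 6 2-pore-domain channels and 2 other transcripts. The other two are Kcnq1ot1, an antisense RNA that overlaps Kcnq1, and Kcnrg, which encodes a regulator and no pore. Just inside the minimum were Kcnk10 with 20 UMIs and Kcnn4 and Kcnh8 with 21 each. Just outside it were Kcng1 with 18 and Kcna6 with 16. Of the 46 symbols left out, 16 had 0 UMIs, Kcne3, a partner known from skeletal muscle, had 3, and the vascular genes Kcnmb1 and Kcna5 had 5 each.

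Nuclei came from gastrocnemius and from plantaris of wild-type C57BL/6 mice aged 12 weeks, with 1 library of 3′ single-nucleus RNA sequencing per muscle and no treatment. Muscle, animal and library therefore cannot be told apart, no test between muscles exists, and the intervals below (95%) cover counting error only. How many animals gave each library is not given in the sources used here. The gastrocnemius library held 7374 barcodes and 19048595 UMIs, and the plantaris library 9156 barcodes and 29248275 UMIs, with medians of 2260 and 2714 UMIs per barcode and 17 barcode sequences in common.

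Potassium channels let potassium ions leave or enter the cell along their gradient and so set the resting potential and shape the action potential. Alpha subunits form the pore. Voltage-gated channels open on depolarisation, BK and SK channels respond to calcium (BK also to voltage), inward rectifiers hold the membrane near rest, and 2-pore-domain channels carry background current. In skeletal muscle fibres these channels repolarise the sarcolemma and the transverse tubules during contraction, and inward rectifiers return potassium from the tubules. Fibre types are named after the myosin heavy chain they express: Myh4 marks type IIb, Myh1 type IIx, Myh2 type IIa and Myh7 type I.

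The promoters of 4 members are shown because the results turn on 2 pairs: Lrrc52 and Lrrc38, of which the first was lowest and the second highest in Myh4 nuclei among the 3 fibre type sets, and Kcnh7 with Kcnj3, whose transcripts met in the same nuclei of the myotendinous junction. Each sequence runs 5′ to 3′ on the gene's strand, from 250 bases before to 50 bases after the RefSeq start (build GRCm38.p6). Capitals mark an E-box (CANNTG, the motif of myogenic basic helix-loop-helix factors) or an N-box (CCGGAA), searched on both strands.
Lrrc52, chr1:167466731-167467030, minus strand: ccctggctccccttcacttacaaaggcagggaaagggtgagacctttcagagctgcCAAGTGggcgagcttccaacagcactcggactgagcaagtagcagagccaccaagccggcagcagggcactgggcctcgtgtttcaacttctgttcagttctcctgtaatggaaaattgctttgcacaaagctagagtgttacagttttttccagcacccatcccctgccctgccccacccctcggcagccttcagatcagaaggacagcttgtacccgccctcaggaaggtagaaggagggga
Lrrc38, chr4:143349500-143349799, plus strand: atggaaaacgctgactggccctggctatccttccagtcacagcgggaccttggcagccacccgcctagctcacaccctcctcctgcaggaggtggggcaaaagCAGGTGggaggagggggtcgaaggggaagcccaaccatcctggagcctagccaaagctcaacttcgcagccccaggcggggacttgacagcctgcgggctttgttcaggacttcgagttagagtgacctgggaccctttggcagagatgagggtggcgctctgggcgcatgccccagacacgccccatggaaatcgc
Kcnh7, chr2:63184238-63184537, minus strand: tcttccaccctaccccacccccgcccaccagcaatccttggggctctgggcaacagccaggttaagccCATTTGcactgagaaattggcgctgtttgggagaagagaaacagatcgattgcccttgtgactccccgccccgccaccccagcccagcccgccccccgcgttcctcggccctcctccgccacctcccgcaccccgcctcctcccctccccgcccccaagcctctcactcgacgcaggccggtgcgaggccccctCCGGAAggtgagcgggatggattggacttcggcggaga
Kcnj3, chr2:55435720-55436019, plus strand: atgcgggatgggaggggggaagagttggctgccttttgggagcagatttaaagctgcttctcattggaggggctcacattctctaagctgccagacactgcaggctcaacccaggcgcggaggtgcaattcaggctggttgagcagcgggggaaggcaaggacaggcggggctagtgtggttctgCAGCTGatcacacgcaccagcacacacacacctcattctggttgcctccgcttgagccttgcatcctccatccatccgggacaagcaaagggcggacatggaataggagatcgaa
Each of the 4 windows held 1 E-box, and that of Kcnh7 also held 1 N-box. E-boxes were common: 72.3% of 32851 promoter windows held at least 1, as did 71.4% of the 63 windows that matched 43 members. An N-box was in 14.9% of all windows and 6.35% of the members' windows. The MCAT motif CATTCC was in 14.7% and 11.1%. The MEF2 motif, CTA and TAG with 4 bases of any kind between them, was in 3.69% of all windows and in 0 of the 63. The 2 windows of Kcnq5, whose own level was highest at the neuromuscular junction, held none of these motifs. The matches describe letters, and no binding was measured.

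Members gave 273306 UMIs, 0.566% of all UMIs, and 3 genes gave 82.6% of these: Kcnma1, the BK channel pore, with 141405 UMIs, Kcnq5, a voltage-gated M-type alpha subunit, with 48025, and Kcnq1ot1 with 36387. Other abundant members were the SK channel Kcnn2 (12557 UMIs), the beta subunit Kcnab1 (6652), the sodium-activated Kcnt2 (3160), the delayed rectifier Kcnc1 (3040), the inward rectifiers Kcnj12 (2933) and Kcnj2 (1065), and the BK gamma subunit Lrrc38 (2694). In all, 15 members had 1000 or more UMIs and 19 had between 20 and 99. UMI counts of nuclear RNA can depend on a gene's length, so these totals do not rank the genes by level, and levels are compared below between sets of nuclei for 1 gene and never between genes. The level is CPM, a gene's UMIs per 1000000 UMIs of the set of nuclei.

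Nuclei were clustered without the members among the genes used, and clusters were named from markers. Of 4894 myonuclei outside junction clusters in gastrocnemius and 5554 in plantaris, those with 3 or more UMIs of the 4 myosin genes were grouped by the most abundant one. This gave 4401 and 4044 Myh4 nuclei, 129 and 718 Myh1 nuclei, 174 and 560 Myh2 nuclei, and 22 and 4 Myh7 nuclei, the last too few for comparisons. The neuromuscular junction cluster held 88 and 80 nuclei and had 14 of its 15 markers above the other myonuclei in each library. The myotendinous junction cluster held 97 and 166 nuclei, with 8 and 7 of 8 markers above. Non-muscle clusters comprised mesenchymal progenitors (1397 and 2046 nuclei), muscle stem cells (140 and 268), macrophages (155 and 351), mural nuclei of pericytes and smooth muscle (199 and 281), tenocytes (55 and 171), vascular endothelium (46 and 86) and adipocytes (27 and 13). Free RNA was present: the summed myonuclear markers stood in the non-muscle classes at between 14.2% and 52.2% of their level in myonuclei. Myonuclear clusters were split by library, with 2171 nuclei of gastrocnemius and 111 of plantaris in one and 131 and 1800 in another.

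**Figure D1:**
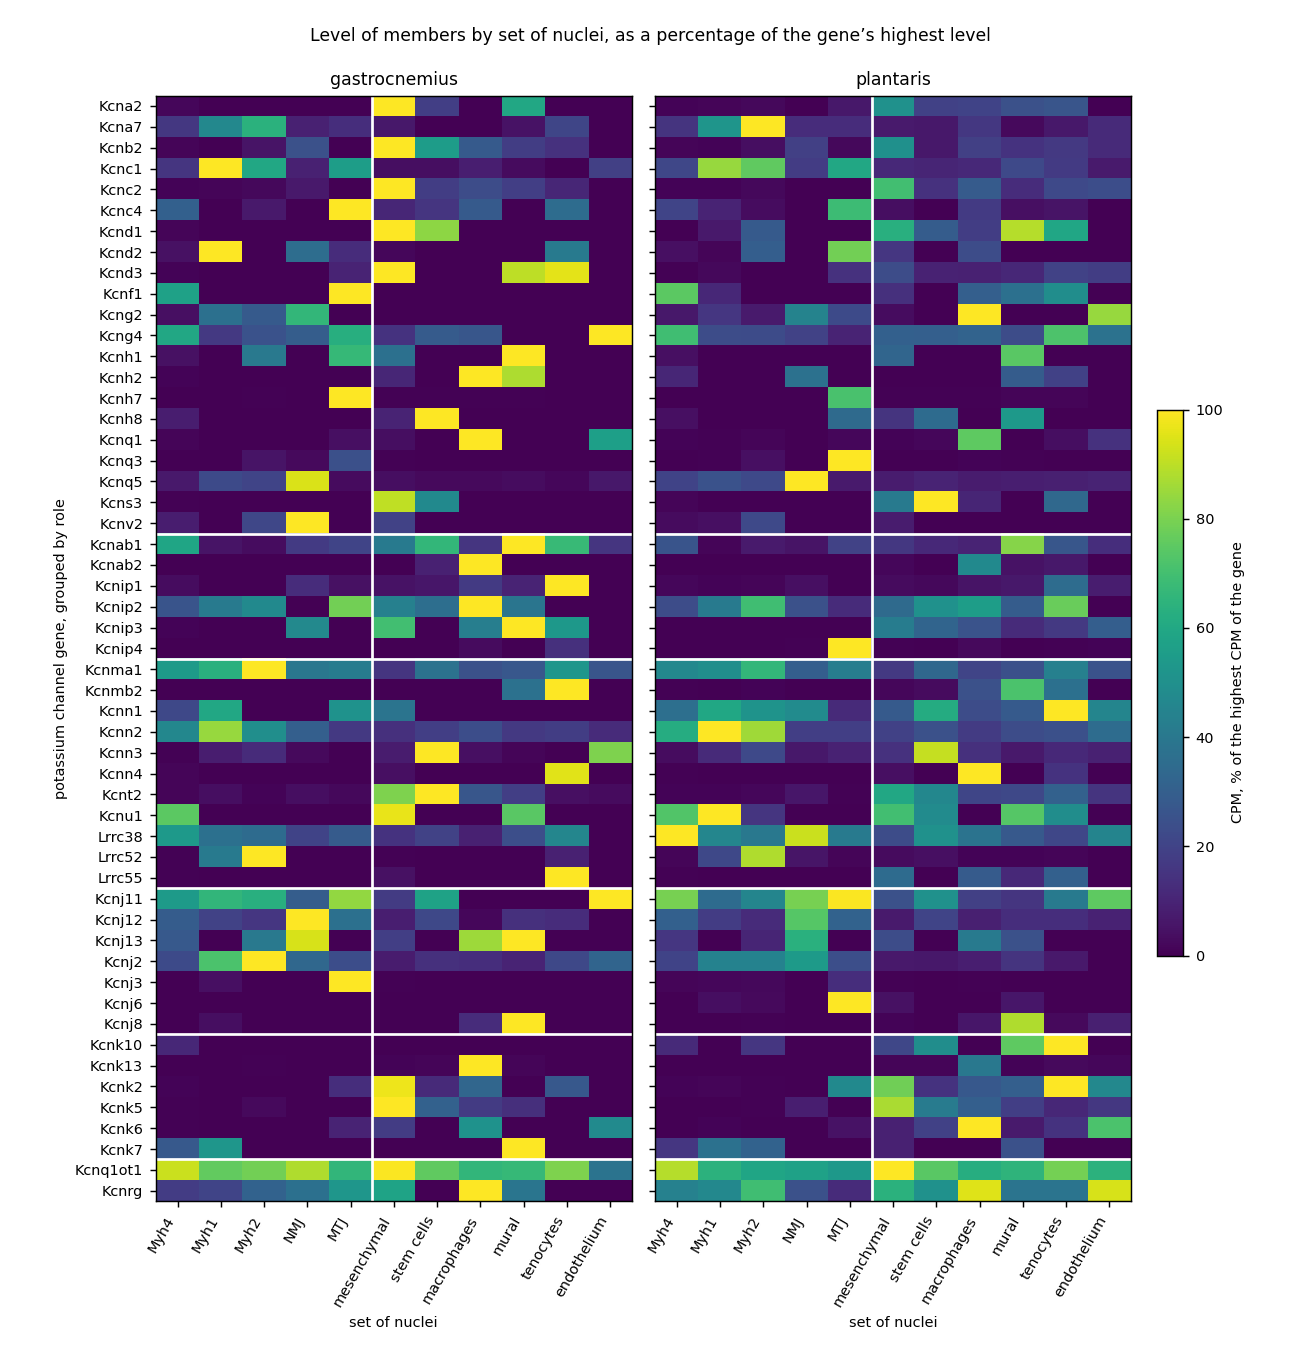
Level of members in each set of nuclei and library, as a percentage of the gene's highest CPM over both libraries. Columns are sets of nuclei in gastrocnemius and plantaris and rows are genes grouped by role, with bright cells for high levels; the bright cells of myonuclei lie under Myh1 and Myh2 nuclei for Kcna7 and Kcnc1, under the neuromuscular junction for Kcnq5 and under the myotendinous junction for Kcnh7.

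The set with the highest level was the same in both libraries for 30 of the 57 members and differed for 27. Myh7 nuclei and adipocytes were left out of this ranking. The same ranking over all genes is not given here, so these counts are not read as a trait of the members. The 30 were spread widely: 6 were highest in mesenchymal progenitors, 5 in macrophages, 4 each in Myh2 nuclei and the myotendinous junction, 3 in mural nuclei, 2 each in the neuromuscular junction and Myh1 nuclei, and 1 each in Myh4 nuclei, muscle stem cells, tenocytes and endothelium. These are orders of single values, and some rest on few UMIs: Kcnh1 in mural nuclei on 2 and 3, and Kcnrg in macrophages on 3 and 12.

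Between fibre types, a potassium channel gene was counted as higher or lower where its CPM differed by 2-fold or more in the same direction in each library, with 20 or more UMIs over the 2 sets in each. Myh2 against Myh4 nuclei gave 12 such members of 29 with enough UMIs, where 10.2% of 10670 genes passed the same rule. Higher in Myh2 nuclei were 8 (5.78% of all genes), among them Lrrc52, Kcnn3, Kcnc1, Kcnb2, Kcna7, Kcnj2 and Kcnc2. Lower were 4 (4.46% of all genes), among them Kcnab1, Kcnc4 and Kcng4. Myh1 against Myh4 nuclei gave 7 of 29, where 5.77% of 10628 genes passed, with 5 higher (3.15% of all genes), Lrrc52, Kcnn3, Kcna7, Kcnc1 and Kcnj2, and 2 lower (2.62%), Kcnab1 and Kcng4. Myh2 against Myh1 nuclei gave 1 of 11, Lrrc52, on the higher side, where 1.85% of 4649 genes passed and 1.38% were higher. The members' median log2 ratios of Myh2 over Myh4 nuclei were 0.21 in gastrocnemius and 0.47 in plantaris, beside 0.07 and -0.10 for all genes tested. For Myh1 over Myh4 nuclei they were 0.22 and 0.09, beside -0.05 and -0.10. With each nucleus thinned to 1000 UMIs, the first count was 5 and the second 3. With fewer UMIs, Lrrc52 and Kcnn3 were among those that no longer reached the minimum or 2-fold. The share of all genes under this and other changed settings, here and below, is not given. Such recomputed counts are therefore not read as particular to the members. Scaling by the median ratio of all genes in place of total UMIs moved fibre type and neuromuscular junction ratios by at most 0.10, myotendinous junction ratios by 0.13 and 0.10, plantaris over gastrocnemius by -0.18 to -0.20, and mesenchymal over myonuclei by -0.39 and -0.36. Ratios below are on the log2 scale, gastrocnemius first, unless said otherwise.

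The BK channel genes split by subunit. Kcnma1, its pore (chr14:23289431-24014491, minus strand, GENCODE M21 on GRCm38), stood at 3553, 4136 and 6507 CPM in the gastrocnemius sets led by Myh4, Myh1 and Myh2, in that order. The plantaris levels were 3049, 3211 and 4312 CPM. Myh2 nuclei were thus above Myh4 nuclei in both muscles, by 0.87 (0.82 to 0.92) and 0.50 (0.47 to 0.53), short of 2-fold. The 22 Myh7 nuclei of gastrocnemius gave 682 Kcnma1 UMIs, a level of 10180 CPM (9427 to 10970), and the 4 of plantaris gave 69 UMIs.

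Lrrc52 and Lrrc38 encode gamma subunits that shift the voltage at which the BK channel opens. Lrrc52 (chr1:167445669-167466780, minus strand) gave 7 UMIs in the Myh4 nuclei of gastrocnemius, 18 in the Myh1 set and 57 in the Myh2 set, or 0.513, 47 and 114 CPM. In plantaris the counts were 23, 67 and 194 UMIs, or 1.51, 24.8 and 101 CPM. The order Myh4, Myh1, Myh2 was the same in both libraries, and both steps of it were larger than counting error: Myh1 over Myh4 nuclei was at 6.52 (5.19 to 8.02) and 4.04 (3.34 to 4.79), and Myh2 over Myh1 nuclei at 1.28 (0.50 to 2.14) and 2.02 (1.61 to 2.44). A UMI was seen in 38 of 174 and 128 of 560 Myh2 nuclei. With every nucleus thinned to 1000 UMIs the shares were 11.4% and 8.8% of Myh2 nuclei (16 and 26 shallower nuclei left out) and 0.0234% and 0.125% of Myh4 nuclei (119 and 39 left out).

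Lrrc38 (chr4:143349757-143371032, plus strand) showed the other order. Its gastrocnemius levels, again ordered Myh4, Myh1, Myh2, were 49.6, 33.9 and 32.1 CPM on 677, 13 and 16 UMIs. Its plantaris levels were 92.3, 42.2 and 36.8 CPM on 1406, 114 and 71 UMIs. Myh4 nuclei were highest in both libraries, and Myh2 over Myh4 nuclei stood at -0.63 (-1.44 to 0.08) and -1.33 (-1.69 to -0.98), so that 2-fold was passed in plantaris alone.

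In the 22 Myh7 nuclei of gastrocnemius, Lrrc52 gave 8 UMIs and Lrrc38 gave 0. These nuclei held 67017 UMIs in all, so the 0 does not show that Lrrc38 was absent. The gamma subunit Lrrc55 gave 26 UMIs over all nuclei and Lrrc26 gave 0.

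The SK channels differed from each other. Kcnn3 gave 17, 6 and 12 UMIs in gastrocnemius by the same order of sets, or 1.25, 15.7 and 24.1 CPM. In plantaris it gave 102, 64 and 84 UMIs, or 6.7, 23.7 and 43.6 CPM. Both libraries had the lowest level in Myh4 nuclei, with Myh2 over Myh4 nuclei at 4.27 (3.07 to 5.42) and 2.70 (2.27 to 3.13). Kcnn2 stood at 242, 444 and 259 CPM in gastrocnemius and at 325, 524 and 450.3 in plantaris, highest in Myh1 nuclei in both but within 2-fold throughout.

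Among voltage-gated alpha subunits, 5 of 12 with enough UMIs were higher in Myh2 than in Myh4 nuclei (5.78% of all genes) and 3 lower (4.46%). Kcnc1, a fast delayed rectifier, stood at 38.8, 251 and 150.5 CPM in the 3 gastrocnemius sets, on 530, 96 and 75 UMIs. In plantaris it stood at 52.9, 212 and 189 CPM, on 806, 571 and 365 UMIs. Myh4 nuclei were lowest in both libraries, with Myh1 over Myh4 nuclei at 2.69 (2.36 to 3.01) and 2.0 (1.84 to 2.16). Myh1 nuclei had the highest value in both. Myh2 over Myh1 nuclei was at -0.74 (-1.19 to -0.29) and -0.16 (-0.35 to 0.03), larger than counting error in gastrocnemius alone.

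Its relative Kcnc4 was highest, not lowest, in Myh4 nuclei among these sets. It gave 125 and 93 UMIs in Myh4 nuclei (9.16 and 6.11 CPM), 0 and 8 in Myh1 nuclei and 1 and 2 in Myh2 nuclei, with Myh2 over Myh4 nuclei at -2.19 (-7.51 to 0.31) and -2.56 (-5.62 to -0.66). Kcng4, a silent subunit that modifies other channels, gave 130 and 168 UMIs in Myh4 nuclei and 2 and 7 in Myh2 nuclei, at -1.25 (-4.31 to 0.63) and -1.60 (-2.94 to -0.53). The gastrocnemius intervals of both genes include 0.

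Kcna7, a channel of the shaker family found in muscle, stood at 8.13, 23.5 and 32.1 CPM in gastrocnemius and at 7.62, 26.3 and 50.3 in plantaris. Both libraries had the lowest level in Myh4 nuclei, with Myh2 over Myh4 nuclei at 1.98 (1.12 to 2.74) and 2.72 (2.32 to 3.13). The step from Myh1 to Myh2 nuclei was upward in both, at 0.45 (-0.81 to 1.81) and 0.94 (0.48 to 1.40). In gastrocnemius this step rested on 9 and 16 UMIs, and its interval includes 0. Kcnq5 encodes an M-type channel, which opens slowly near rest. Kcnq5 was less alike in the muscles: 481, 1582 and 1425 CPM in gastrocnemius beside 1413, 1771 and 1546 in plantaris, with Myh2 over Myh4 nuclei at 1.57 (1.45 to 1.68) and 0.13 (0.07 to 0.19).

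The delayed rectifiers Kcnb2 and Kcnc2 passed on few counts. Kcnb2 had 4 and 11 UMIs in Myh2 nuclei, 9 of the 11 in 1 nucleus, and leaving out the nucleus with most UMIs in each set turned the plantaris value to -0.72. Kcnc2 had 2 and 8 UMIs in Myh2 nuclei, at 1.13 (-1.99 to 3.14) and 1.23 (-0.12 to 2.40).

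Inward rectifiers pointed in opposite directions. Kcnj2 stood at 22.2, 70.5 and 98.3 CPM in gastrocnemius and at 19.8, 43.7 and 43.6 in plantaris. It was lowest in Myh4 nuclei in both, with Myh2 over Myh4 nuclei at 2.15 (1.68 to 2.59) and 1.14 (0.77 to 1.49). Kcnj12, which encodes a close relative of the same channel, stood at 73, 49.6 and 40.1 CPM and at 77.6, 44.5 and 30.6, highest in Myh4 nuclei in both, at -0.86 (-1.58 to -0.23) and -1.34 (-1.74 to -0.96). This passed 2-fold in plantaris alone. Kcnj11, the pore of the ATP-sensitive channel, differed by under 2-fold, at 0.21 (-1.44 to 1.48) and -0.80 (-1.70 to -0.02).

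Kcnab1 (chr3:65109384-65378223, plus strand), a beta subunit that speeds inactivation of voltage-gated channels, was far lower in Myh1 and Myh2 than in Myh4 nuclei. It gave 3277, 8 and 7 UMIs in the 3 gastrocnemius sets, or 240.1, 20.9 and 14 CPM. In plantaris it gave 1617, 15 and 57 UMIs, or 106, 5.56 and 29.6 CPM, and 47 of the 57 in the Myh2 set lay in 1 nucleus. Myh1 over Myh4 nuclei was at -3.52 (-4.74 to -2.54) and -4.26 (-5.10 to -3.53), and Myh2 over Myh4 nuclei at -4.10 (-5.41 to -3.05) and -1.84 (-2.25 to -1.46). Without the nucleus with most UMIs in each set, the last value was -4.32. A UMI was found in 786 of 4401 Myh4 nuclei of gastrocnemius (17.9%) and 588 of 4044 of plantaris (14.5%), against 4.02% and 1.96% in the Myh2 sets. Thinned to 1000 UMIs, the shares were 10.6% and 6.92% of Myh4 nuclei (119 and 39 left out) and 1.27% and 0.749% of Myh2 nuclei (16 and 26 left out).

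Kcnab1 was also uneven among myonuclear clusters of 1 library. In gastrocnemius it stood at 493 CPM in the cluster led by Sorcs1 and Slc4a10, with 1545 nuclei, and at 83.4 in the one led by Gm49192 and Igfn1, with 2171. In plantaris it stood at 219 CPM in the cluster led by Ryr3 and Smoc1, with 1409 nuclei, and at 34.2 in the one led by Lrrc3b and Mss51, with 1800. Each of these clusters came mostly from the library named.

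**Figure D2:**
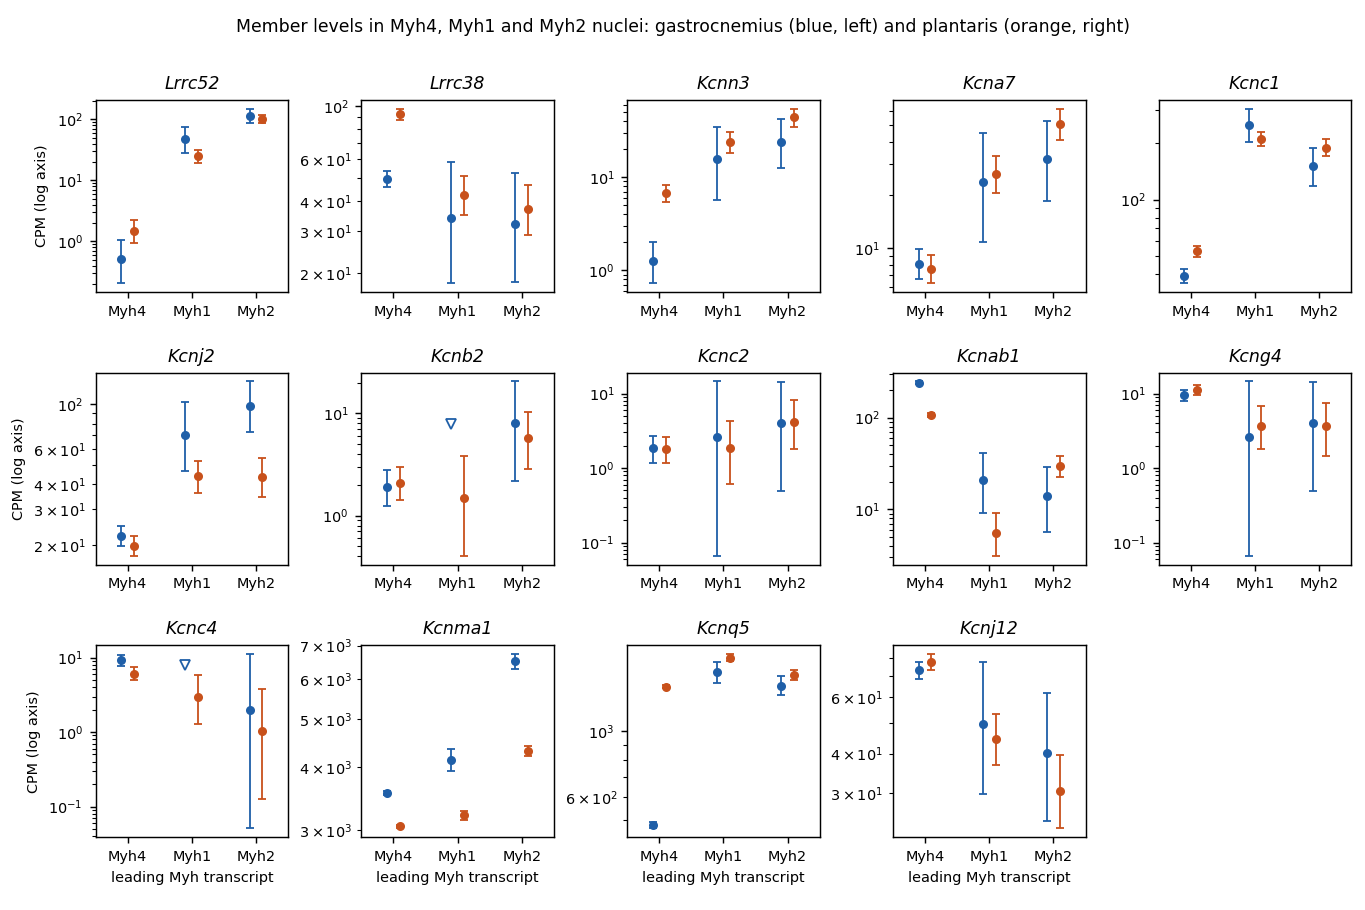
Level in CPM (log axis) of 14 members in Myh4, Myh1 and Myh2 nuclei of each library; bars are exact Poisson 95% intervals and open triangles mark 0 UMIs, drawn at the floor of 3 counts. Lrrc52, Kcnn3, Kcna7 and Kcnj2 are lowest in Myh4 nuclei of both libraries, and Lrrc38, Kcnab1 and Kcnj12 are highest there.

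Of 14 partner genes of potassium channels (none a member), 8 could be compared between Myh2 and Myh4 nuclei, where 5.78% of all genes were higher and 4.46% lower. Ank2, an ankyrin scaffold, was higher, at 4645 against 566 CPM in gastrocnemius and 4071 against 810.1 in plantaris. Cntnap2, which clusters potassium channels in axons, was lower, with 0 UMIs against 186 in gastrocnemius and 4 against 345 in plantaris. Of 18 genes of sarcolemmal excitability, 15 could be compared and 4 were higher in Myh2 nuclei (5.78% of all genes), among them Atp1b1 and Atp1b4. Atp1b1 encodes a beta subunit of the sodium-potassium pump, which restores the potassium gradient. Atp1b1 was at 664 against 23.7 CPM in gastrocnemius and 361 against 42.7 in plantaris. The other 11 did not pass 2-fold in both libraries.

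At the neuromuscular junction, 8 of 31 members passed 2-fold against the other myonuclei in both libraries, where 8.69% of 10903 genes passed. Higher were 5 (6.6% of all genes): Kcnq5, Kcnj12, Kcnb2, Kcnt2 and Kcnip1. Lower were 3 (2.08% of all genes): Kcnab1, Kcnc1 and Kcna7. The members' median log2 ratios were -0.65 and -0.52, beside -0.06 and -0.03 for all genes tested. Junction nuclei were mostly of the Myh4 kind: 98.9% and 82.9% of their myosin UMIs were from Myh4. With each nucleus thinned to 1000 UMIs, Kcnq5 and Kcnab1 alone of the 8 still passed. Choosing nuclei by UMIs of the junction markers, which took 2968 and 2972 nuclei in place of 88 and 80, left 0 of the 8 and put Kcnq5 at -0.31 and 0.13.

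Kcnq5 (chr1:21398403-21961942, minus strand) stood at 6600 CPM (1412 UMIs) in the neuromuscular junction nuclei of gastrocnemius, against 554 in the other myonuclei. In plantaris it stood at 6994 CPM (2219 UMIs), against 1482. Each junction level lay above every other ranked set of its library, and junction over other myonuclei was at 3.58 (3.49 to 3.66) and 2.24 (2.18 to 2.30). A Kcnq5 UMI was found in 73 of 88 (83%) and 77 of 80 (96.2%) junction nuclei and in 39.9% and 81.5% of Myh4 nuclei. Macrophages, which hold free RNA at a lower depth (937 and 1247 UMIs in the median nucleus, beside 1859.5 and 3244 in the junction), had one in 18.7% and 39.9%. Thinned to 1000 UMIs, the junction shares were 81.3% and 97.1% (13 and 10 left out), the Myh4 shares 25.1% and 58.2%, and the macrophage shares 13.4% and 29.2% (88 and 128 left out).

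Kcnj12 stood at 252 against 70.6 CPM in gastrocnemius on 54 junction UMIs and at 186 against 67.8 in plantaris on 59. Junction nuclei were above in both muscles, at 1.84 (1.42 to 2.23) and 1.46 (1.05 to 1.83). Its relative Kcnj2 was at 0.28 (-1.04 to 1.34) and 1.08 (0.28 to 1.77). The other members that passed upward rest on few junction UMIs: 8 and 9 for Kcnb2, 4 and 10 for Kcnt2 (6 of the 10 in 1 nucleus), and 2 and 1 for Kcnip1.

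Downward, Kcnab1 had 15 and 7 junction UMIs, at 70.1 against 224 CPM in gastrocnemius and 22.1 against 84.2 in plantaris. Kcnc1 had 5 and 14, at -1.08 (-2.71 to 0.15) and -1.03 (-1.91 to -0.28). Kcna7 had 1 and 2, at -1.05 (-6.36 to 1.45) and -1.21 (-4.26 to 0.65). The delayed rectifier and the shaker channel thus rest on few counts here. Set beside Myh4 nuclei alone, both were lower by less than 2-fold. Kcnc1 was at 23.4 against 38.8 CPM in gastrocnemius and 44.1 against 52.9 in plantaris. Kcna7 was at 4.67 against 8.13 and 6.30 against 7.62. Kcnab1 stayed past 2-fold, at 70.1 against 240.1 and 22.1 against 106. The part of the fibre type mix was not tested. Kcnma1 was lower by less than 2-fold, at 2571 against 3717 CPM in gastrocnemius and 1948 against 3214 in plantaris.

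Among the listed genes that are no members, 2 of 8 partners were higher in the junction (6.6% of all genes), Ank3, an ankyrin that anchors ion channels (10530 against 3348 CPM in gastrocnemius and 10920 against 2771 in plantaris), and Cntnap2. Of 15 excitability genes 2 were higher, among them Scn4a, the pore of the sodium channel that fires the muscle action potential (257 against 111 CPM in gastrocnemius and 243 against 121 in plantaris). On either list 0 were lower (2.08% of all genes).

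At the myotendinous junction, where the fibre end meets the tendon, 6 of 33 members passed, where 6.76% of 10895 genes did. Higher were 4 (4.6% of all genes): Kcnh7, Kcnq3, Kcnj3 and Kcnc4. Lower were 2 (2.17% of all genes): Kcnq5 and Kcnn2. The members' median log2 ratios were -0.21 and -0.62, beside -0.13 and -0.11 for all genes. Choosing nuclei by UMIs of the junction markers took 266 and 777 nuclei and left 2 members past 2-fold, Kcnh7 at 7.16 and 6.58 and Kcnq3 at 3.89 and 4.54.

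Kcnh7 (chr2:62693414-63184287, minus strand), a voltage-gated alpha subunit of the ether-a-go-go-related family, gave 586 UMIs in the 97 junction nuclei of gastrocnemius and 53 in all 4894 other myonuclei, or 1952 against 3.57 CPM. In plantaris it gave 878 UMIs in 166 junction nuclei and 53 in 5554 others, or 1388 against 2.61 CPM. The junction held 85.4% and 84.7% of the gene's UMIs in the libraries, and the ratios were 9.10 (8.69 to 9.53) and 9.06 (8.66 to 9.48). Within the junction the UMIs were gathered in 29 of 97 nuclei (29.9%, 21 to 40) and 34 of 166 (20.5%, 14.6 to 27.4), with at most 99 in 1 nucleus in each library.

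The remaining junction nuclei held 0 Kcnh7 UMIs. Thinned to 1000 UMIs, the shares were 27.3% and 17.4% (9 and 11 left out), against 0.490% and 0.250% of Myh4 nuclei (119 and 39 left out) and 1.49% and 1.34% of macrophages (88 and 128 left out). In plantaris a few nuclei outside muscle fibres also held many: 39 of the 53 UMIs of mesenchymal progenitors, 16 of the 20 of mural nuclei and 14 of the 16 of tenocytes lay in 1 nucleus each.

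Junction nuclei with Kcnh7 held more of a marker that defines the junction than those without it, as did nuclei with some other members. Col22a1, the junction collagen, stood at 2520 CPM in the 29 nuclei with a Kcnh7 UMI and 1190 in the 68 without in gastrocnemius, and at 2810 and 1360 CPM in plantaris. Their median depths were close, 2752 against 2815.5 UMIs and 3598.5 against 3384. By leading myosin, 26 of the 29 nuclei were Myh4 in gastrocnemius. In plantaris 23 of the 34 were Myh4 and 6 were Myh1, beside 60 and 34 of the 132 without Kcnh7. The Col22a1 difference was not particular to Kcnh7. Nuclei with and without Kcnc4 stood at 2430 and 1520 CPM of Col22a1 in gastrocnemius and at 2250 and 1570 in plantaris. Those with Kcnk2, Kcnq3 or Kcnj3 were also higher in both libraries. Those with Kcnq5, Kcnn2, Lrrc38 or Kcnma1 were lower in both.

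Kcnj3, a G protein-gated inward rectifier subunit, gave 40 UMIs in 8 junction nuclei of gastrocnemius and 11 in 5 of plantaris, or 133 against 0.538 CPM in gastrocnemius and 17.4 against 2.12 in plantaris, the second value being that of the other myonuclei. It was at 7.95 (6.84 to 9.26) and 3.04 (1.94 to 4.02). All 8 and all 5 nuclei also held Kcnh7, which was found in 23.6% and 18% of the junction nuclei without Kcnj3. The nuclei with Kcnj3 were deeper, with medians of 4163.5 against 2756 and 3585 against 3388 UMIs, and the part of depth in this was not tested.

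Kcnq3, an M-type alpha subunit, gave 14 junction UMIs in gastrocnemius, 13 of them in 1 nucleus, and 121 in 14 nuclei of plantaris. The ratios were 5.85 (4.63 to 7.10) and 7.02 (6.43 to 7.65), and without the nucleus with most UMIs in each set 2.63 and 6.59. Kcnc4 gave 9 and 13 UMIs, each in as many nuclei, at 30 against 8.61 CPM in gastrocnemius and 20.6 against 5.21 in plantaris, or 1.80 (0.64 to 2.77) and 1.98 (1.02 to 2.82). Unlike Kcnh7, it was spread thinly over the nuclei. Kcnq5 was lower at 199.9 against 554 CPM in gastrocnemius and 499.7 against 1482 in plantaris, and Kcnn2 at 86.6 against 249 CPM in gastrocnemius and 96.5 against 366 in plantaris.

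Kcnip4, a calcium-binding partner of voltage-gated channels, was seen at the myotendinous junction of plantaris alone. It gave 0 UMIs in the 97 junction nuclei of gastrocnemius, which allows up to 9.99 CPM, and 815 UMIs in plantaris, or 1289 against 1.87 CPM. All 815 lay in 8 of 166 nuclei, with 510 in 1 and 229 in another, and they made up 87.8% of the gene's UMIs in the library. UMIs gathered in so few nuclei are not independent counts, and whether the libraries differ was not tested. Of these 8 nuclei 0 held Kcnh7, which was in 21.5% of the rest, a gap not detectable with 8 nuclei. Kcnj6, another G protein-gated subunit, gave 13 UMIs in 12 of the plantaris junction nuclei and 0 in gastrocnemius, too few to be compared.

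Kcnk2, a mechanically gated 2-pore-domain channel, gave 3 and 23 junction UMIs, at 9.99 against 0.673 CPM in gastrocnemius and 36.4 against 0.688 in plantaris, and was short of the UMI minimum in gastrocnemius. Among listed genes, where 4.6% of all genes were higher and 2.17% lower, 1 of 8 partners was higher, Abcc8 (10 and 17 UMIs, 33.3 against 3.1 CPM in gastrocnemius and 26.9 against 4.72 in plantaris), a regulatory subunit of ATP-sensitive potassium channels, and Ank3 was lower. Of 15 excitability genes Atp1b4 and the calcium channel subunit Cacng1 were higher and Atp1b1 was lower. Atp1b4 stood at 149.9 against 3.23 CPM in gastrocnemius and 198 against 14 in plantaris.

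**Figure D3:**
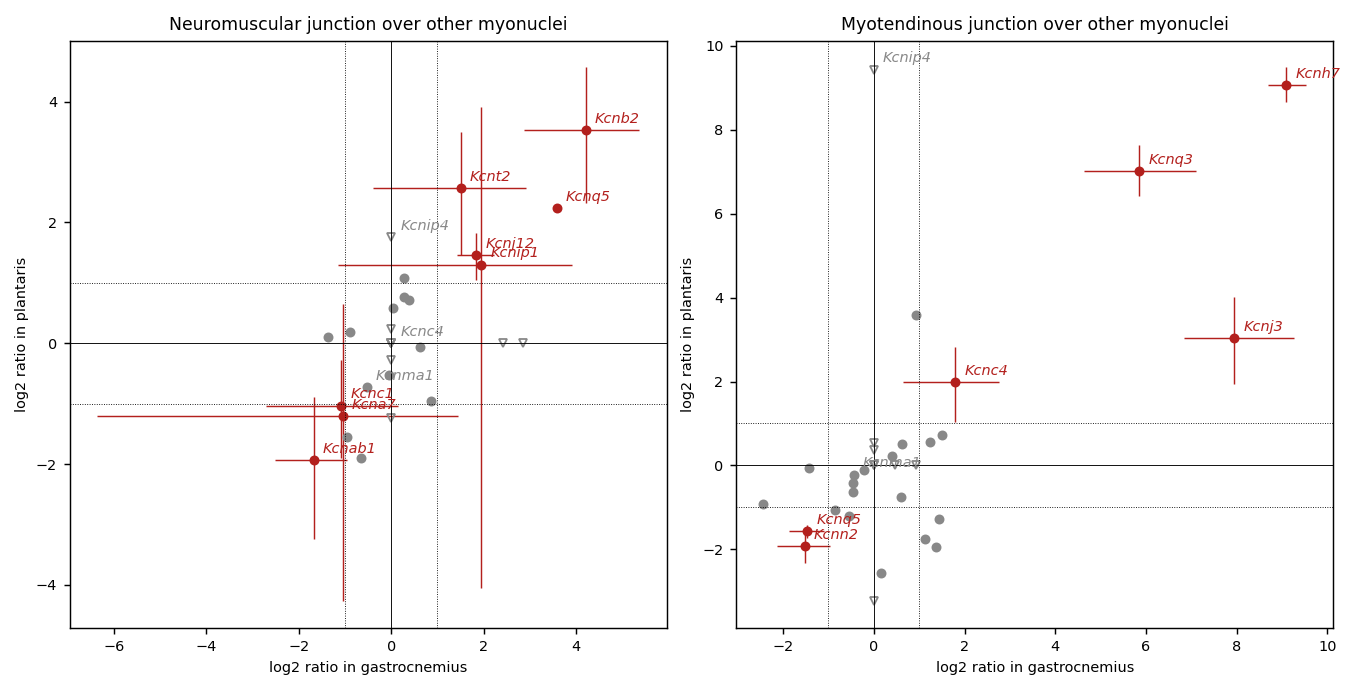
Log2 ratio of each member in neuromuscular junction nuclei (left) and myotendinous junction nuclei (right) over the other myonuclei, gastrocnemius on the x axis and plantaris on the y axis. Red points passed 2-fold in both libraries, bars are exact 95% counting intervals, and open triangles have a set at 0 UMIs and stand at the bound from the floor of 3 counts, or at 0 where that floor allows no difference; Kcnq5 lies at 3.58 and 2.24 on the left, and Kcnh7, at 9.10 and 9.06, on the right.

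**Figure D4:**
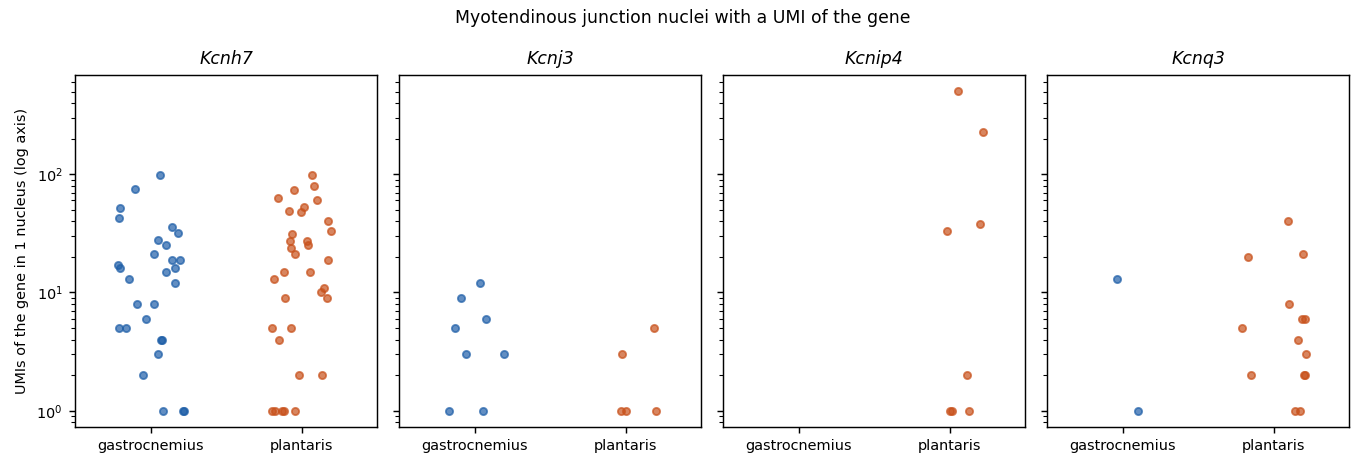
UMIs of Kcnh7, Kcnj3, Kcnip4 and Kcnq3 in each myotendinous junction nucleus that held at least 1, by library (log axis). Kcnh7 is spread over 29 and 34 nuclei, while most Kcnip4 UMIs come from 2 nuclei of plantaris with 510 and 229.

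Between the muscles, 7 of 38 members differed by 2-fold or more in myonuclei outside junction clusters, where 11.4% of 12978 genes did. Higher in plantaris were 5 (8.85% of all genes), Kcnq5, Lrrc52, Kcnj3, Kcnn3 and Kcnrg, and lower were 2 (2.53%), Kcnab1 and Kcnj13. In Myh4 nuclei 7 of 35 differed, where 11.0% of 12472 genes did. The same 5 were higher (8.75% of all genes), and Kcnab1 and Kcnip1 were lower (2.2%). The fibre type mix was not quite equal in these nuclei. Myh1 gave 0.616% of their myosin UMIs in gastrocnemius and 2.22% in plantaris, and Myh2 gave 0.307% and 0.961%. The part of this mix was not tested. The members' median log2 ratio was 0.04 outside junctions and -0.05 in Myh4 nuclei, beside 0.18 and 0.20 for all genes. Each value compares 1 library with 1 library. Thinned to 1000 UMIs, 3 members differed in Myh4 nuclei, Kcnq5, Kcnn3 and Kcnrg.

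Kcnq5 stood at 481 CPM in the Myh4 nuclei of gastrocnemius and 1413 in those of plantaris, a log2 ratio of 1.56 (1.52 to 1.60). The Myh1 set was at 0.16 (0.04 to 0.29), the Myh2 set at 0.12 (0.0 to 0.24), the neuromuscular junction at 0.08 (-0.01 to 0.18) and the myotendinous junction at 1.32 (0.92 to 1.74). The muscles thus stood close where Kcnq5 was highest, and whether the sets differ was not tested. Kcnn3 rested on 17 and 102 UMIs in Myh4 nuclei, or 1.25 and 6.7 CPM, at 2.43 (1.68 to 3.26), beside 0.60 (-0.60 to 2.10) for the Myh1 set and 0.86 (-0.02 to 1.86) for the Myh2 set. Lrrc52 was at 1.56 (0.29 to 3.02) in Myh4 nuclei on 7 and 23 UMIs. Where it was abundant it stood below 0, at -0.92 (-1.69 to -0.08) for Myh1 and -0.18 (-0.62 to 0.27) for Myh2. Kcnj3 rested on 4 and 27 UMIs, and with junction nuclei kept among the Myh4 nuclei it was at -0.72. Kcnrg rested on 31 and 85 and lies over Dleu2, so that their reads may be mixed.

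Kcnab1 was at -1.18 (-1.26 to -1.09) in Myh4 nuclei, on 240.1 and 106 CPM. The Myh1 set stood at -1.91 (-3.24 to -0.46), the neuromuscular junction at -1.67 (-3.20 to -0.29) and mesenchymal progenitors at -1.32 (-1.54 to -1.09). The Myh2 set went the other way, at 1.07 (-0.06 to 2.45), with 47 of its 57 plantaris UMIs in 1 nucleus, and the myotendinous junction was at -0.05 (-0.76 to 0.71). Mesenchymal progenitors held myonuclear markers at 26.2% and 32.4% of the myonuclear level.

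The smaller sets gave counts beside these. Of 16 members in Myh1 nuclei 2 were lower in plantaris, Kcnab1 and Kcnt2, where 16.3% of 7647 genes differed and 4.32% were lower. Of 16 in Myh2 nuclei Kcnab1 was higher and Kcnj2 lower, where 13.5% of 7204 genes differed, 8.58% higher and 4.94% lower. Kcnj2 was at -1.17 (-1.70 to -0.63) there and at -0.17 (-0.40 to 0.07) in Myh4 nuclei. Of 9 at the neuromuscular junction Lrrc38 was higher, on 4 and 27 UMIs, and Kcnab1 lower, where 13% of 3669 genes differed, 9.13% higher and 3.9% lower. In Myh4 nuclei Lrrc38 was at 0.90 (0.76 to 1.03).

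Of 17 members at the myotendinous junction 5 were higher in plantaris, among them Kcnip4, Kcnq3, Kcnk2 and Kcnq5, and 2 lower, among them Kcnj3, where 13.3% of 4816 genes differed, 9.9% higher and 3.41% lower. These junction nuclei differed in fibre type between the muscles: Myh4 gave 96.0% of their myosin UMIs in gastrocnemius and 60.1% in plantaris, and Myh1 gave 2.78% and 36.7%. The part of this mix in the counts was not tested. Kcnj3 was at -2.94 (-4.05 to -1.95) there, the other direction from its value of 2.60 (1.08 to 4.57) in Myh4 nuclei. Of 33 in mesenchymal progenitors Kcnc1 and Kcng4 were higher and Kcnab1, Kcnd3 and Kcns3 lower, where 7.96% of 11496 genes differed, 5.92% higher and 2.04% lower. Kcnc1 stood there at 9.665 and 29.25 CPM, beside 50.9 and 91.4 in all myonuclei. Kcng4 rested on 5 and 21 UMIs, at 1.08 (-0.36 to 2.85). Unlike the 3 lower genes, these were not above the share of the myonuclear markers, beyond counting error, in both libraries. The part of free RNA was not tested. Kcnma1 was lower in plantaris by less than 2-fold in 4 sets of myonuclei: Myh4 stood at -0.22 (-0.24 to -0.20), Myh1 at -0.37 (-0.44 to -0.29), Myh2 at -0.59 (-0.65 to -0.53) and the neuromuscular junction at -0.40 (-0.57 to -0.23). At the myotendinous junction it was at 0.01 (-0.11 to 0.13). Kcnip1 in Myh4 nuclei rested on 35 and 19 UMIs, and Kcnj13, which lies over Gigyf2, on 20 and 13 outside junctions.

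**Figure D5:**
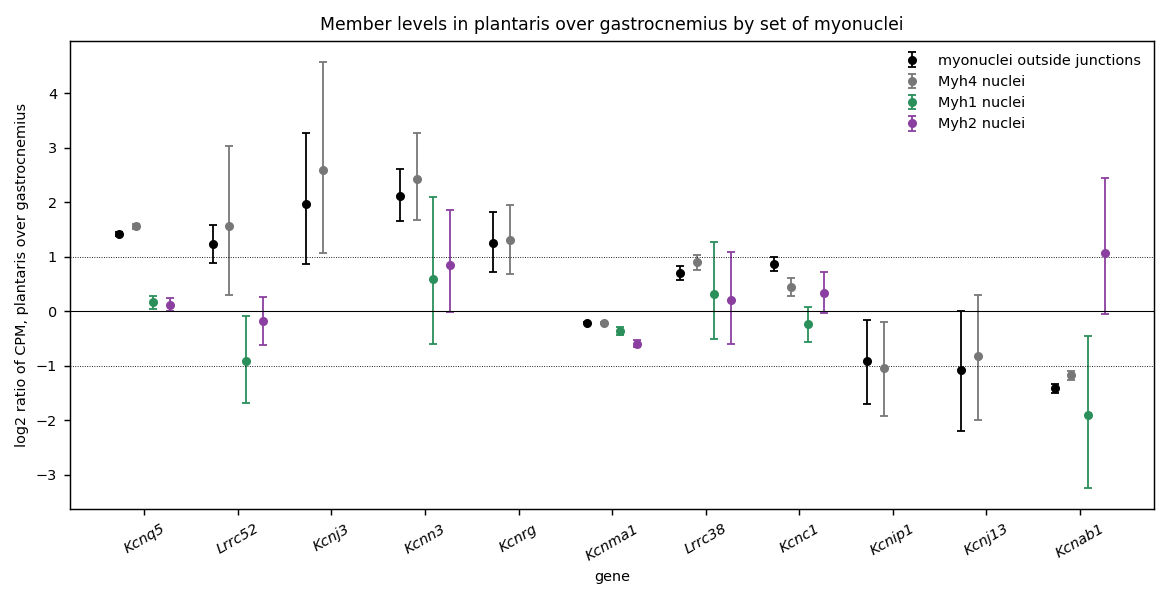
Log2 ratio of plantaris over gastrocnemius for 11 members in 4 sets of nuclei, with exact 95% counting intervals; 1 library per muscle. Kcnq5 is at 1.56 in Myh4 nuclei and near 0 in Myh1 and Myh2 nuclei, and Kcnma1 is at -0.22 in Myh4 nuclei.

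In non-muscle nuclei, 15 of 41 members were higher than in myonuclei by 2-fold or more in both libraries in at least 1 class, where 42.6% of 12390 genes were, so the share of members was near that of all genes. Mesenchymal progenitors, the interstitial cells that give rise to fat and fibrous tissue, had 23 of 39 members past 2-fold, 9 higher and 14 lower, where 34.2% of 12202 genes passed, 25.3% higher and 8.91% lower. The 9 were Kcnb2, Kcnc2, Kcnd3 and Kcna2 (voltage-gated), Kcnip3 (a partner), Kcnt2 and Kcnn3 (activated by sodium and by calcium), and Kcnk2 and Kcnk5 (2-pore-domain). The 14 lower included the muscle members Kcnma1, Kcnq5, Kcnj2, Kcnj12, Kcnc1 and Kcna7. In the values that follow, the level after "against" is that of all myonuclei.

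Kcnt2 gave 895 and 1313 UMIs in mesenchymal progenitors, at 412 against 6.83 CPM in gastrocnemius and 305 against 5.64 in plantaris. Kcnc2 stood at 201 against 2.08 CPM in gastrocnemius and 140 against 2.02 in plantaris. Kcnk5, an acid-sensitive background channel, gave 160 and 277 UMIs, at 73.6 against 0.520 CPM in gastrocnemius and 64.3 against 0.329 in plantaris, or 7.14 (6.13 to 8.38) and 7.61 (6.55 to 8.94). Each of these 3 genes was low in myonuclei of both libraries. Kcnk2 stood at 75 against 0.845 CPM in gastrocnemius and 60.1 against 1.74 in plantaris, and Kcnb2 at 149.6 against 2.47 CPM in gastrocnemius and 75 against 2.87 in plantaris. Kcnd3 was less alike in the muscles, at 33.1 and 7.66 CPM on 72 and 33 UMIs.

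Macrophages had 17 of 35 members past 2-fold, where 23.7% of 11290 genes passed: 8 higher (19.9% of all genes) and 9 lower (3.84%). Kcnk13, a background channel of myeloid cells, gave 76 and 128 UMIs, at 322 against 0.260 CPM in gastrocnemius and 129 against 0.423 in plantaris, or 10.27 (8.86 to 12.19) and 8.26 (7.28 to 9.42). Kcnq1 stood at 84.8 against 1.11 CPM in gastrocnemius and 63.6 against 0.799 in plantaris. Both were at their highest in macrophages in each library. Kcnq1 shares its locus with the antisense Kcnq1ot1, which stood at 581 and 549 CPM in macrophages and 876 and 879.7 in mesenchymal progenitors, where Kcnq1 gave 7 and 3 UMIs. The beta subunit Kcnab2 gave 12 and 24 UMIs in macrophages and 0 and 3 in all myonuclei.

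Mural nuclei had 11 of 34 past 2-fold, where 20.4% of 11320 genes passed: 5 higher (16.9% of all genes) and 6 lower (3.52%). Kcnj8, the vascular pore of the ATP-sensitive channel, gave 27 and 48 UMIs, at 67 against 0.260 CPM in gastrocnemius and 59 against 0.0940 in plantaris, or 8.01 (6.49 to 9.98) and 9.29 (7.36 to 12.38). Its partner Abcc9 was higher there as well, at 1452 against 397 CPM in gastrocnemius and 1154 against 393 in plantaris, and is held by myonuclei too. Kcnab1 reached its highest level over the ranked sets here, 409.7 against 219.5 CPM in gastrocnemius and 336 against 83.1 in plantaris, on 165 and 273 UMIs in 30 and 37 nuclei. Kcnmb2, a BK beta subunit, gave 8 and 31 UMIs.

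Muscle stem cells had 8 of 33 past 2-fold, where 19.8% of 11168 genes passed: 4 higher (17.2% of all genes), Kcnn3, Kcnt2, Kcnc2 and Kcnb2, and 4 lower (2.64%), Kcnq5, Kcnh7, Kcnc1 and Kcnn2. For Kcnh7 the level of all myonuclei, 41.6 and 43.7 CPM, came mostly from the myotendinous junction: stem cells stood at 9.18 and 9.66 CPM on 2 and 6 UMIs, and myonuclei outside junctions at 3.57 and 2.61. Kcnn3 gave 43 and 112 UMIs, at 197 against 2.99 CPM in gastrocnemius and 180.2 against 13.3 in plantaris, or 6.04 (5.41 to 6.68) and 3.76 (3.43 to 4.08). The SK channels thus lay apart, Kcnn2 in fibres and Kcnn3 highest in stem cells. Kcnt2 stood at 509.6 and 235 CPM. Kcnb2 had 18 and 6 UMIs, 9 of the 18 in 1 nucleus. Kcnma1 stood at 66.3% and 68.4% of its level in myonuclei, above the 42.4% and 49.6% of the myonuclear markers.

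Tenocytes had 7 of 33 past 2-fold, where 17.3% of 11111 genes passed: 4 higher (15.4% of all genes), Kcnip1, Kcnb2, Kcnt2 and Kcnc2, and 3 lower (1.91%), Kcnq5, Kcnj12 and Kcnn2. Of the 16 Kcnip1 UMIs in plantaris 13 lay in 1 nucleus. Kcnma1 in tenocytes was at 3416 and 2826 CPM, 92.8% and 88.8% of the level in myonuclei, where myonuclear markers stood at 44.5% and 44.9%. Endothelium had 3 of 33 past 2-fold, where 17.4% of 11100 genes passed: 2 higher (15.2% of all genes), among them Kcnt2 on 1 and 13 UMIs, and 1 lower (2.29%). Adipocytes, with 27 and 13 nuclei, had 4 of 33 past 2-fold, where 12.7% of 11015 genes passed: 0 were higher (11.0% of all genes) and 4 lower (1.7%), Kcnq5, Kcnab1, Kcnma1 and Kcnn2. Scaled by the median ratio of all genes, these 4 turned above 0 in plantaris. In adipocytes Kcns3 gave 6 and 2 UMIs.

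Most of the remaining members were too sparse or too even to be placed. Kcnk6 was highest in macrophages of both libraries, on 4 and 33 UMIs, but was short of the UMI minimum in gastrocnemius. Kcnip2 (58 and 80 UMIs in all myonuclei), Kcnn1 (47 and 112), Kcnu1 (34 and 48), Kcnf1 (27 and 39) and Kcnk7 (21 and 20) were found in myonuclei of both libraries and passed 2-fold in the same direction in both libraries in none of the comparisons above. Others, among them Kcnd2, Kcnd1, Kcnv2, Kcng2, Kcnh1, Kcnh2, Kcnh8, Kcnk6, Kcnk10, Kcnn4 and Lrrc55, had between 20 and 103 UMIs over all nuclei.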

How the data were processed

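Nuclei of gastrocnemius and plantaris were sorted by propidium iodide and sequenced with 10x Chromium 3′ v3.1 chemistry, per the labels. The authors deposited UMI counts per gene and barcode for each library, made with Cell Ranger 6.0.1 against mm10, per the submitters' processing notes. Barcodes with under 200 genes or over 5% mitochondrial UMIs (6 in all) were left out. Both libraries were clustered together (scanpy 1.11.5, 2000 variable genes without the members, 30 principal components, 15 neighbours, Leiden resolution 1.0) and clusters named from markers. A cluster of shallow nuclei stayed unnamed by a depth limit set after seeing the data. The doublet caller marked 3 nuclei, too few to have worked. The members, marker lists and gene lists were chosen with earlier results of these data known. Values are given for the up to 10 members past 2-fold in each direction with the largest ratio in a comparison, and for a fixed list of known muscle and vascular members; others are counted. Some members and listed genes are in the counts but are not reported here, and were left out of the figures by gene level. UMIs were summed per set and library into CPM, with exact Poisson intervals for levels, exact conditional binomial intervals for ratios (SciPy 1.17.1) and Clopper-Pearson intervals for shares, all at 95%. They cover counting error only. A ratio with a set at 0 used a floor of 3 counts in the set. With 1 library per muscle there was no test, and no p-value is given. The counting of calls was checked on simulated data with independent Poisson counts. The check does not cover calls that rest on UMIs gathered in single nuclei.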

Additional observations from a re-analysis of the deposited data

Results flagged for a closer look

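At the myotendinous junction 3 members were past 2-fold in opposite directions in the muscles, each on 1 to 3 junction UMIs. The difference was not tested, and every interval includes 0. Kcnn1 was at 1.14 (-1.95 to 3.07) in gastrocnemius and -1.76 (-7.08 to 0.75) in plantaris on the log2 scale. Kcnrg was at 1.38 (-1.71 to 3.33) and -1.95 (-7.26 to 0.56). Kcnip2 was at 1.43 (-0.89 to 3.06) and -1.28 (-6.60 to 1.24). Over all genes, 95 of 10895 (0.872%) were opposite in this way.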

How the results depend on the processing

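Of 80 recomputed counts of members past 2-fold, 66 stayed within 1.5 times the value reported and 14 did not. For these settings the members tested and the share of all genes are not given. Changes in the counts are therefore not read as particular to the members. With each nucleus thinned to 1000 UMIs, Myh2 against Myh4 nuclei gave 5 (12 reported), Myh1 against Myh4 nuclei 3 (7), Myh2 against Myh1 nuclei 0 (1), the neuromuscular junction 2 (8) and plantaris against gastrocnemius in Myh4 nuclei 3 (7), on fewer UMIs. The mean of single-nucleus CPM gave 4 for Myh1 against Myh4 nuclei and 0 for Myh2 against Myh1 nuclei. A minimum of 5 UMIs gave 10 for the myotendinous junction (6), 15 for the muscles outside junctions (7), 12 for the muscles in Myh4 nuclei and 23 for non-muscle classes (15). Junction nuclei chosen by marker UMIs gave 2 for either junction. Requiring that the interval leave out 0 gave 4 for the neuromuscular junction. This rule, leaving out the nucleus with most UMIs, and counting the unnamed cluster as myonuclei were chosen after seeing the data. Directions turned as follows (log2), and the cause was not tested. Thinning put Kcna7 at the neuromuscular junction at 0.80 and 0.85. Median-ratio scaling put plantaris adipocytes at 0.98 for Kcnq5, 0.60 for Kcnab1, 0.55 for Kcnma1 and 0.51 for Kcnn2, a shift of 2.04 for all genes. Single-nucleus means put Kcna7 at the gastrocnemius neuromuscular junction at 0.0741, and Kcnn3 in macrophages at -2.03 and -0.77. Kcnb2 in plantaris Myh2 over Myh4 nuclei was at -1.14 with 10 or more Myh UMIs and 70% from 1 gene, and at -0.72 without the nucleus with most UMIs. Keeping junction nuclei among the others put Kcnj3 between the muscles at -0.30, and at -0.72 in Myh4 nuclei. Junction nuclei chosen by markers put the gastrocnemius neuromuscular junction at -0.049 for Kcnb2, -0.31 for Kcnq5, -1.08 for Kcnt2, 0.91 for Kcnab1 and -0.0757 for Kcnj12. They put that of plantaris at -0.71 for Kcnt2, 0.69 for Kcnab1 and -0.34 for Kcnip1, and Kcnq5 at the myotendinous junction at 0.13 and 0.0611. No paired analysis was possible because each muscle has 1 library. Depth limits the rare sets most: a set at 0 UMIs was put at the floor of 3 counts.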
